A study of Mus musculus with 4 samples.

Results

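The nuclear-encoded subunits of mitochondrial oxidative phosphorylation were followed in mouse peritoneal cells after lipopolysaccharide (LPS), a bacterial outer membrane molecule sensed through Toll-like receptor 4. Members were the genes whose RefSeq symbol matched the naming patterns of the subunits (Nduf a, b, c, s and v, Sdh a to d, Uqcr, Cox4 to Cox8 with an a, b or c, and Atp5), without pseudogenes. This gave 81 genes on 101 probes, out of 22911 genes that could be named on the array. They comprised 35 subunits of complex I, 4 of complex II, 8 of complex III, 15 of complex IV and 17 of complex V. The patterns also took in 2 genes that are not subunits, Cox7a2l, which helps join complexes into supercomplexes, and Ndufa4l2, a relative of Ndufa4.

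The groups were wild-type and LysM-St18flox mice, each at 0 h and at 3 h of LPS, and each of the 4 groups had 1 array. The cells came from the peritoneal lavage of mice given 4% thioglycollate 3 days earlier, an irritant to which leukocytes migrate. The genotype label names LysM, the lysozyme gene whose promoter is active in macrophages, neutrophils and their precursors and commonly drives Cre there, and a floxed allele of St18, a zinc-finger transcription factor. Recombination would thus be limited to myeloid cells, and other cells in the lavage would keep the gene. The age and sex of the mice, the number of animals behind each array and the dose of LPS are not given in the sources used here. With 1 array a group there was no replicate check on any difference, no test was possible, and every fold below compares single arrays.

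Complexes I and II take electrons from NADH and succinate, complex III passes them through cytochrome c to complex IV, and the protons pumped on the way drive complex V, the ATP synthase. Most subunits are encoded in the nucleus and a small core by mitochondrial DNA. Macrophages activated by LPS are known for a turn from respiration towards glycolysis, with the respiratory chain used to make signalling oxidants, which makes the transcripts of its subunits a natural readout.

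Some promoter motifs, which the naming rule did not use, were more frequent among the members than among all genes. RefSeq promoter windows of assembly GRCm38.p6, reaching from 250 bases before to 50 after a gene's start, were matched by symbol for 67 of the 81 members (72 windows) and for 27025 genes in all (32851 windows). The motif of NRF1, a regulator of respiratory chain genes (searched on both strands as GCGC, then A and any base, then GCGC), was found for 17 of 67 members, 25.4%, against 5.19% of all genes. The core letters bound by ETS factors such as GABP (CCGGAAG on both strands) were found for 17 members, 25.4%, against 9.93% of all genes. The YY1 motif (AAGATGGC on both strands), which can overlap the ETS letters, was found for 10 members, 14.9% against 3.19%. At least 1 of these motifs was present for 38 members, 56.7%, against 16.4% of all genes. The ERR motif (TGACCTTG on both strands) was found for 4 members, 5.97% against 1.76%. The NF-kB motif (GGGA, any base and TTTCC, on both strands), bound by the best known LPS-activated factor, was found for 0 of 67 members and for 0.466% of all genes. General promoter elements were near their background: the CCAAT box was found for 44.8% of members and 41.1% of genes, the GC box (GGGCGG) for 41.8% and 38.2%, and the TATA box (TATAAA) for 11.9% and 15.7%, each on both strands. The median GC content of the windows was 57.3% for members and 52.7% for all, and no background matched for GC content or expression was used. A match describes these letters in this window and is not a measured binding site.

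**Figure D1:**
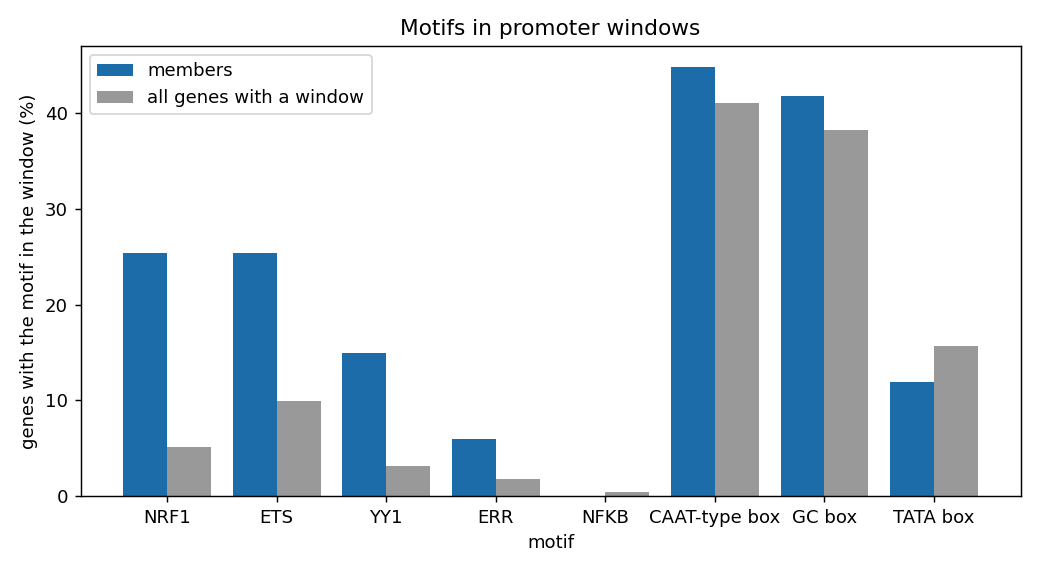
Percent of genes with each motif in the promoter window, for the 67 members with a window (blue) and all 27025 genes with one (grey). The NRF1, ETS and YY1 bars of the members are 25.4%, 25.4% and 14.9%, against 5.19%, 9.93% and 3.19% for all genes. The NF-kB motif is rare in both sets, found for 0 of 67 members and 0.466% of all genes.

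Windows are shown for 4 members that hold more than 1 of the motifs, with the matches in capitals, and for Ndufa4 and its LPS-responsive relative AA467197, which held none of the 5 factor motifs. All are written 5′ to 3′ on the strand of the gene. Cox6a1, a structural subunit of complex IV, has NRF1 and ETS matches (chr5:115348909-115349208, minus strand). Sdhd, a membrane anchor of complex II, has NRF1, ETS and ERR matches (chr9:50603800-50604099, minus strand). Atp5j, a peripheral stalk subunit of complex V, has YY1 and ETS matches (chr16:84834927-84835226, minus strand), while its other window holds none. Ndufs6, an accessory subunit of complex I, has NRF1 and YY1 matches (chr13:73328433-73328732, minus strand). The window of Ndufa4 is chr6:11907401-11907700 on the minus strand and that of AA467197 is chr2:122637637-122637936 on the plus strand.
Cox6a1: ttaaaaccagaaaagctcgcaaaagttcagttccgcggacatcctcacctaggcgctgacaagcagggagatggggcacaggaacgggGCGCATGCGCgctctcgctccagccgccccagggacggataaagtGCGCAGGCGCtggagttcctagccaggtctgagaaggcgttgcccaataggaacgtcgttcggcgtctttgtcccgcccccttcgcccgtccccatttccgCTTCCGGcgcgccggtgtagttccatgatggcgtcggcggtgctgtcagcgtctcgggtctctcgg
Sdhd: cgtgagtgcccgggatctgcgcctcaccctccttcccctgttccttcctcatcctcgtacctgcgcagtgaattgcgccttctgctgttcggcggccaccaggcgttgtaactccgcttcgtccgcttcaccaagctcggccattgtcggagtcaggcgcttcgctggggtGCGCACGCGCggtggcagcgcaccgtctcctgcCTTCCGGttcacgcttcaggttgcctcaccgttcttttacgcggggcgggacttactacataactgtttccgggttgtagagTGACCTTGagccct
Atp5j: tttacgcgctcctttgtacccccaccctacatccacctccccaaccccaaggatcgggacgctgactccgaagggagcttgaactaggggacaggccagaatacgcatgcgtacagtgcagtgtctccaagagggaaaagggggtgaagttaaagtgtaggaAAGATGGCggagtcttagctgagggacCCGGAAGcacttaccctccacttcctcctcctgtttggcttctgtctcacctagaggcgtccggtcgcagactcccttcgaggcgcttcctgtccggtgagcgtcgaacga
Ndufs6: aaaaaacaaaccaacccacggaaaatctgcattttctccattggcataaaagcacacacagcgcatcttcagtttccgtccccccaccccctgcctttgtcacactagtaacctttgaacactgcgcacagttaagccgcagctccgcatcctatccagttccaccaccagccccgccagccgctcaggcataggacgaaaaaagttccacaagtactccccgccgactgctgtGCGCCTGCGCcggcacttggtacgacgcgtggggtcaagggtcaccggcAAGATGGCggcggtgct
Ndufa4: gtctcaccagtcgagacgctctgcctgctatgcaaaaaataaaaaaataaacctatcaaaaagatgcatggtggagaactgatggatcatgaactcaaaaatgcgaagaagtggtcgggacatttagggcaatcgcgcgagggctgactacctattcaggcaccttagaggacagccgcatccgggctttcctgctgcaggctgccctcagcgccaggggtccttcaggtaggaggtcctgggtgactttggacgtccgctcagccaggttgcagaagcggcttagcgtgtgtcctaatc
AA467197: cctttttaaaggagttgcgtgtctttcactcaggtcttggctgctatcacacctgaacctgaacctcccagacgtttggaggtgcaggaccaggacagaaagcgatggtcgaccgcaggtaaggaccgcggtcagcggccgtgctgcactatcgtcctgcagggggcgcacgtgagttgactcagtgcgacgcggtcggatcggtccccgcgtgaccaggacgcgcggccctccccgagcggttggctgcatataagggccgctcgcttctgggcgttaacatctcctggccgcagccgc

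Each value is the level of a gene's brightest probe, as log2 of the processed spot intensity over the array's 75th percentile. The 75th percentiles were 672.1 to 1067 intensity units, 52.2% to 55.6% of probes were well above background, and no spot was saturated. Repeated spots of a probe differed by a median SD of 0.0306 to 0.0406 (log2) within an array, which covers spot noise and not the spread between mice. The targeted gene went with the labels. Its brighter St18 probe was well above background on both wild-type arrays (-1.31 and -1.66) and on neither LysM-St18flox array, and a second probe was above background on none. All 6 macrophage markers were well above background on all arrays. Markers of other cells differed by genotype: the summed signal of 7 erythroid markers was 9.69 to 11.2 times the 75th percentile in wild-type cells and 82.7 to 96.6 times in LysM-St18flox cells, that of 8 B cell markers 4.64 to 6.28 and 19.7 to 24.7, that of 7 neutrophil markers 78.8 to 110 and 32.4 to 37.2, and that of 8 mesothelial and stromal markers 11.4 to 12.1 and 4.31 to 5.52. The neutrophil markers did not all go one way, with 2 of 7 (0 h) and 3 of 7 (3 h) higher on the LysM-St18flox arrays. The sums of 7 T and NK cell markers were 2.58 to 2.85 and 6.48 to 6.58, of 6 mast cell markers 1.89 to 2.11 and 6.85 to 7.05, and of 5 eosinophil markers 3.16 to 3.28 and 6.28 to 7.24. Of the B cell list, Cd79a was above background on 2 arrays. Some measured markers went against the sums and were lower on the LysM-St18flox arrays. These were 2 of 7 B cell markers at 0 h and 1 of 7 at 3 h. They also included 1 of 4 and 1 of 5 T and NK cell markers, and 1 of 5 mast cell markers at each time. In such mixed cells, fewer cells of a type and less RNA per cell cannot be told apart, and the part of these markers in the genotype differences below was not tested.

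Of the 81 members, 77 were well above background on all 4 arrays. The 4 others were Cox7b2, Cox8b and Cox8c, isoforms of complex IV known from testis or muscle, and Ndufa4l2, none of which rose well above background anywhere. As a set, the subunits moved little. The range of a member's level over the 4 arrays had a median of 0.33 (log2), against 0.72 for the 12344 genes measured on all arrays, and it passed 1.5-fold for 13 of 77 members (16.9%) against 61.3% of genes.

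The wild-type 0 h array stood apart from the others over these genes. The SD over members of its deviation from the median of the other 3 arrays was 0.38, against 0.15 to 0.19 for the others, and 12 members deviated by more than 0.5 on it against 1 on each of the others. It held the lowest level of 33 members and the highest of 27. These deviations and counts were made over the members only, so they do not show a trait particular to the subunits. Without the wild-type 0 h array, the range passed 1.5-fold for 1 of 77 members, Cox7a1 (0.77 on the log2 scale), or 1.3%, against 43.1% of all genes. The wild-type LPS response and the genotype difference at 0 h both rest on this array. Probes of a gene also differed more in these comparisons: over all genes with at least 2 measured probes the median gap between the 2 brightest was 0.41 in the wild-type LPS response and 0.35 in the genotype difference at 0 h, against 0.17 and 0.15 in the other comparisons, and over the 17 such members it was 0.16 and 0.13 against 0.12 and 0.08.

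**Figure D2:**
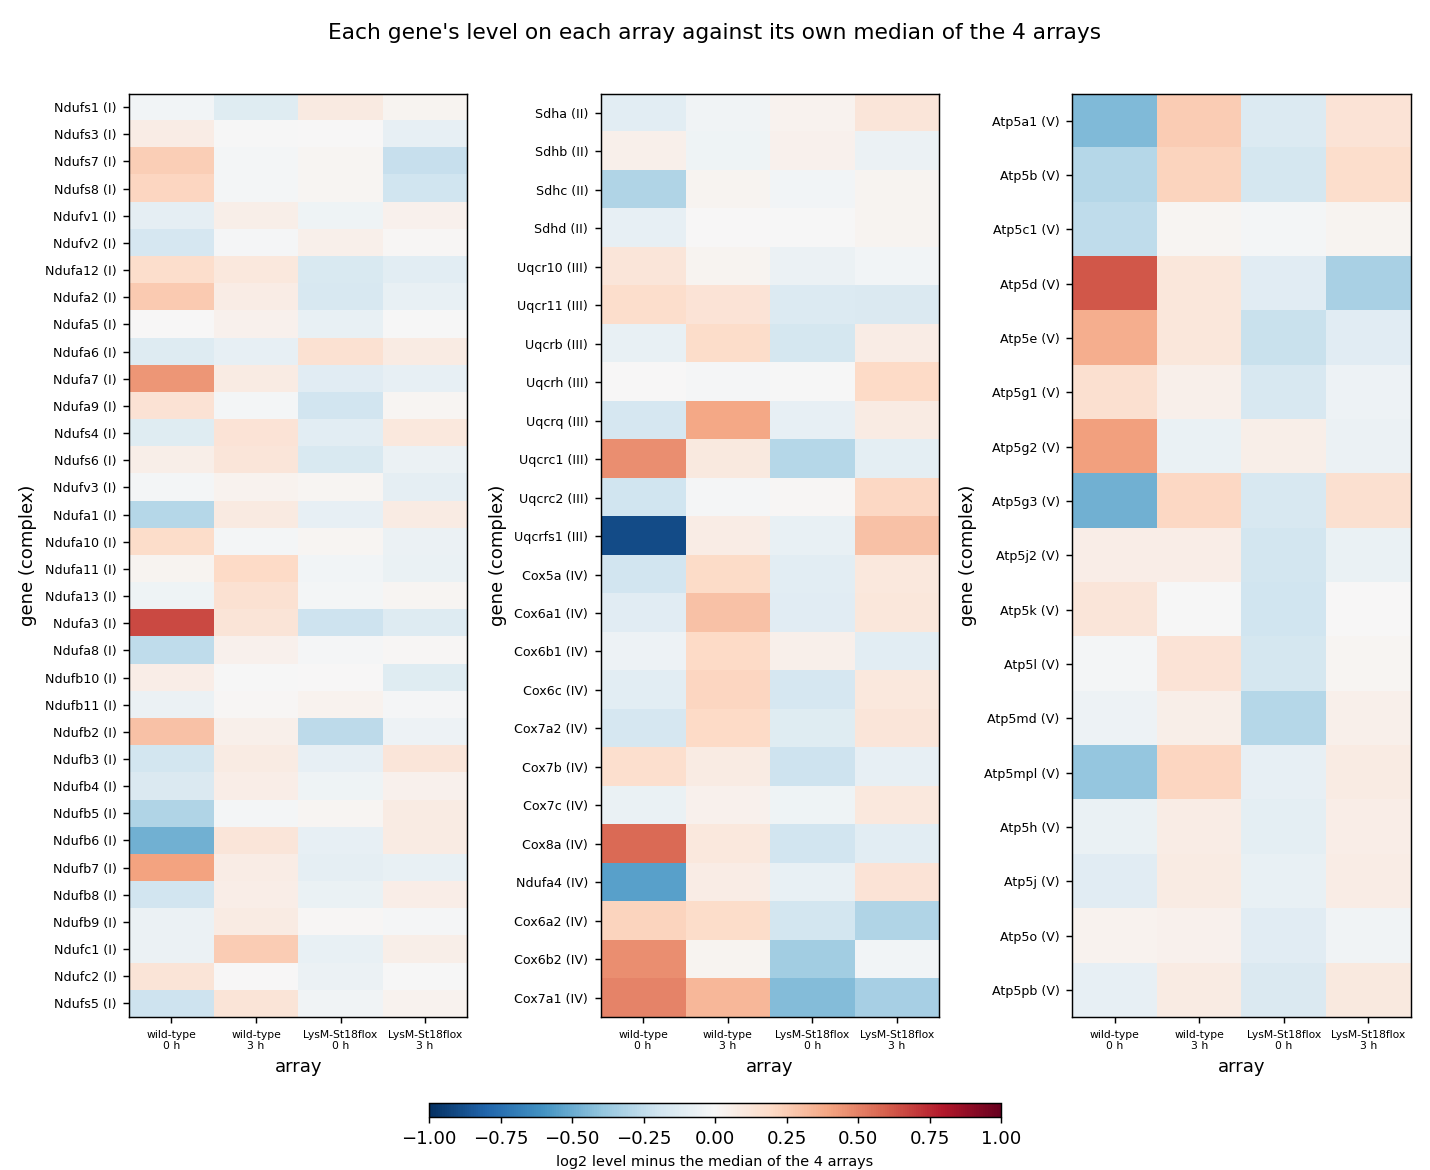
Level of measured subunits on each array minus the median of its 4 arrays (log2, colour; scale limited to 1 either way), by complex. The wild-type 0 h column is the strongest coloured, with Uqcrfs1 low and Ndufa3, Atp5d and Cox8a high in it.

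The first comparison asked how 3 h of LPS changed the subunits in each genotype. In wild-type cells 7 of 77 measured members differed by at least 1.5-fold, all higher with LPS, against 42.1% of the 12589 measured genes that differed either way (16.6% higher, 25.5% lower). At 2-fold the count was 1 member, against 20.7% of genes. In LysM-St18flox cells 0 of 77 members differed by 1.5-fold, against 34.7% of 12976 genes, and 0 by 2-fold, against 17.1%. Restricted to genes with a mean level of at least 2, as bright as 72 of the members, the counts were 6 and 0 members against 33.7% and 28% of genes. The SD of the log2 response over members was 0.35 and 0.14, against 1.02 and 0.94 over all genes, so the members lay closer together than genes in general in both genotypes.

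The direction of the set as a whole depended on the scaling. The median LPS response of the members was 0.08 in wild-type and 0.09 in LysM-St18flox cells, against -0.11 and -0.09 over all genes. Above 0 were 48 of 77 (43.2% of all genes) and 57 of 77 (43% of all genes). With quantile normalization the medians were -0.14 and -0.19, with 26 and 6 of 77 members above 0, and the all-gene medians -0.17 and -0.16; the authors' deposited values gave -0.14 and -0.19 with the same counts. What did not turn with the scaling in LysM-St18flox cells was the side of the members' median on which each complex lay, while the order of complexes III and IV did. Complexes III, IV and V lay above that median by 0.07 to 0.10, 0.07 to 0.11 and 0.03 to 0.07 over 5 scalings, and complexes I and II lay below it (-0.06 to -0.04 and -0.08 to -0.05). Median scaling shifts all genes of an array by the same amount, so it could not change these distances from the members' median. The deposited values nearly repeated those of quantile normalization (complex I at -0.044 in both), so this check rests on fewer than 5 separate scalings. In wild-type cells the order of the complexes was another one and changed with the scaling, with complex IV 0.01 to 0.16 above the members' median and complex I -0.03 to -0.00 from it.

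**Figure D3:**
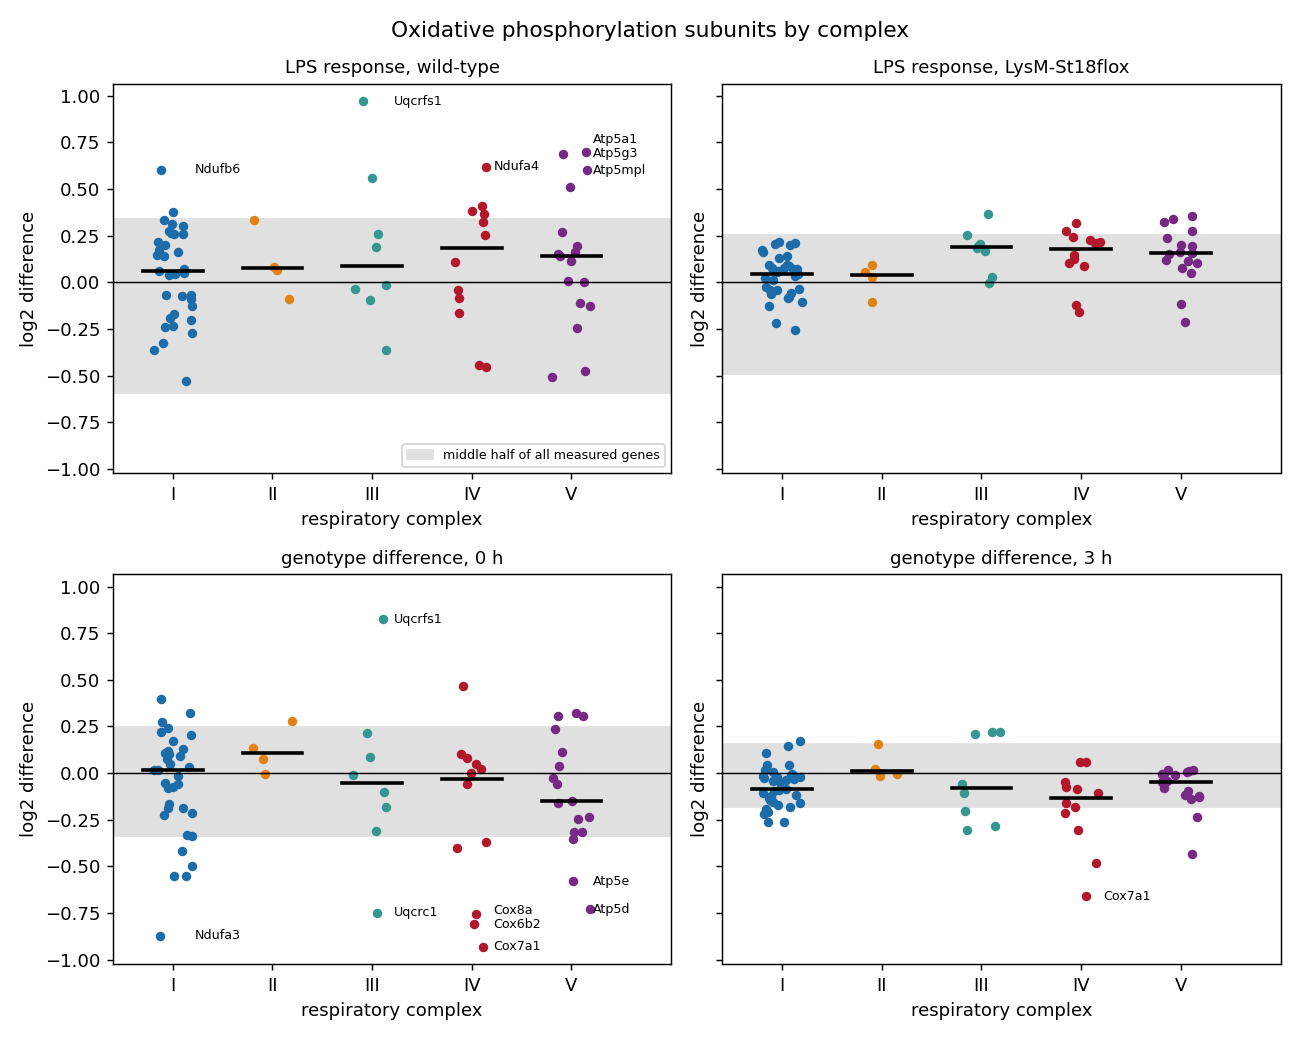
log2 difference of measured subunits by complex in the 4 comparisons (points; black bars are medians), over the range between the quartiles of all measured genes (grey band). Points spread widest in the panels that use the wild-type 0 h array, and in LysM-St18flox cells all LPS responses lie between -0.25 and 0.36.

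Complex I is the NADH dehydrogenase, with a core of iron-sulfur and flavin subunits in its matrix arm and many accessory subunits. The 35 members had a median LPS response of 0.06 in wild-type and 0.05 in LysM-St18flox cells, with 21 and 22 above 0. The 7 core subunits lay a little lower, at medians of -0.07 and -0.06.

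Ndufs7 and Ndufs8, which carry iron-sulfur clusters near the quinone site, were lower with LPS in both genotypes by nearly the same amount. Ndufs7 levels in wild-type cells were 4.77 and 4.50, and those in LysM-St18flox cells 4.55 and 4.30, differences of -0.27 and -0.25. Those of Ndufs8 were 4.34 and 4.11, then 4.16 and 3.94, differences of -0.23 and -0.22. Both kept this sign in 5 scalings, at -0.54 to -0.16 and -0.56 to -0.18 for Ndufs7. The core subunits Ndufv1 and Ndufv2 had wild-type responses of 0.15 and 0.16 and LysM-St18flox responses of 0.08 and -0.04. Ndufs1, the largest core subunit, gave -0.09 and -0.06, and Ndufs3 gave -0.07 and -0.08.

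Of the 9 accessory subunits of the matrix arm and 19 of the membrane arm, Ndufb6 was past 1.5-fold in wild-type cells (levels 2.56 and 3.16, log2 difference 0.60) and gave 0.17 in LysM-St18flox cells (2.96 and 3.13). Ndufs4, whose loss in mice and people causes complex I deficiency, was higher in both, by 0.26 and 0.22. Ndufb3 gave 0.27 and 0.20. At the low end, Ndufa3 gave -0.53 in wild-type and 0.08 in LysM-St18flox cells, its wild-type 0 h level of 5.89 being the highest of the 4 (the others 5.36, 5.02 and 5.09). Ndufa7 and Ndufb7 had the same shape, at -0.36 and 0.03 and at -0.33 and 0.02. A second, dimmer Ndufa3 probe was lower with LPS in both genotypes (-0.34 and -0.15). For Ndufb10, levels stayed between 4.59 and 4.78 on all arrays.

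Complex II is succinate dehydrogenase, which is also an enzyme of the tricarboxylic acid cycle and is inhibited by itaconate, the product of the LPS-induced enzyme Acod1. All 4 subunits stayed within 0.33 of their 0 h level. The flavoprotein Sdha was at 3.55 and 3.62 on the wild-type arrays, then at 3.69 and 3.78 on the others (responses 0.07 and 0.09). The iron-sulfur subunit Sdhb was at 5.0 and 4.90, then 4.99 and 4.89 (-0.09 and -0.10). The anchors Sdhc and Sdhd gave 0.33 and 0.05, and 0.08 and 0.03. The wild-type 0 h level of Sdhc, 2.86, was below the other 3 (3.13 to 3.19). Acod1 itself went from 1.57 to 8.14 in wild-type and from 1.38 to 7.84 in LysM-St18flox cells.

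Complex III, the cytochrome bc1 complex, held the member with the largest LPS response in LysM-St18flox cells. Uqcrfs1, the Rieske iron-sulfur protein that hands electrons to cytochrome c1, was at 2.70 without and 3.67 with LPS in wild-type cells, while LysM-St18flox cells gave 3.52 and 3.89. It was higher with LPS by 1.96-fold in the first and 1.29-fold in the second (log2 0.97 and 0.36), and stayed above 0 in all 5 scalings (0.76 to 1.08 and 0.08 to 0.43). Its wild-type 0 h level was the lowest of the 4 by 0.83 or more. The core proteins went apart: Uqcrc2 gave 0.19 in both genotypes and Uqcrc1 -0.36 and 0.18. Levels of Uqcrc1 went from 4.57 to 4.21 between the wild-type arrays and went from 3.83 to 4.01 between the LysM-St18flox arrays. Among the accessory subunits Uqcrb gave 0.26 and 0.25, Uqcrq 0.56 and 0.17, and Uqcr11 -0.03 and 0.00. The 2 probes of Uqcr10 had wild-type responses of -0.09 and 0.45, with LysM-St18flox responses of 0.03 and -0.13. The complex III subunit Cyc1 and the soluble carrier cytochrome c (Cycs) are not matched by the naming patterns. Cycs went from 4.03 to 5.09 in wild-type and from 4.27 to 5.24 in LysM-St18flox cells, 1.06 and 0.97 higher on the log2 scale, which is a larger response in LysM-St18flox cells than that of any member. Cyc1 gave 0.45 and 0.11.

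Complex IV, cytochrome c oxidase, had 9 general subunits and 6 isoforms known mainly from muscle, heart or testis. The general subunits had the highest median of any group in wild-type cells, 0.32, with 7 of 9 above 0, and 0.21 with 8 of 9 above 0 in LysM-St18flox cells. Ndufa4, first taken for a complex I subunit and since assigned to complex IV, went from 3.45 to 4.07 in wild-type and from 3.91 to 4.13 in LysM-St18flox cells (0.62 and 0.21). Cox6a1 was at 7.31 and 7.71, then 7.31 and 7.53 (0.41 and 0.23). Cox5a, Cox7a2 and Cox6c had wild-type responses of 0.38, 0.37 and 0.32 and LysM-St18flox responses of 0.21, 0.25 and 0.27, so these 5 subunits were all higher by at least 0.2 in both genotypes. Cox8a went the other way in wild-type cells, from 7.22 to 6.77, with 6.47 and 6.55 in LysM-St18flox cells (-0.46 and 0.09). Cox4i1, the large nuclear subunit, is not matched by the naming patterns and gave -0.02 and 0.08. The direction of the 5 subunits is that of the 75th-percentile scaling. With quantile normalization all 5 were lower with LPS in LysM-St18flox cells (-0.09 to -0.04). Among members, only Uqcrfs1 and Atp5b were higher in both genotypes in each of 5 scalings, and the share of all genes that were was not computed.

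The contrast between Ndufa4 and its relative was wide. AA467197, known as an LPS-induced protein that takes the place of Ndufa4 in complex IV, went from -0.05 to 5.27 in wild-type and from 0.23 to 5.4 in LysM-St18flox cells. Its responses were thus 5.32 and 5.16 on the log2 scale, beside 0.62 and 0.21 for Ndufa4. The third relative, Ndufa4l2, stayed below the background criterion on all 4 arrays.

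**Figure D4:**
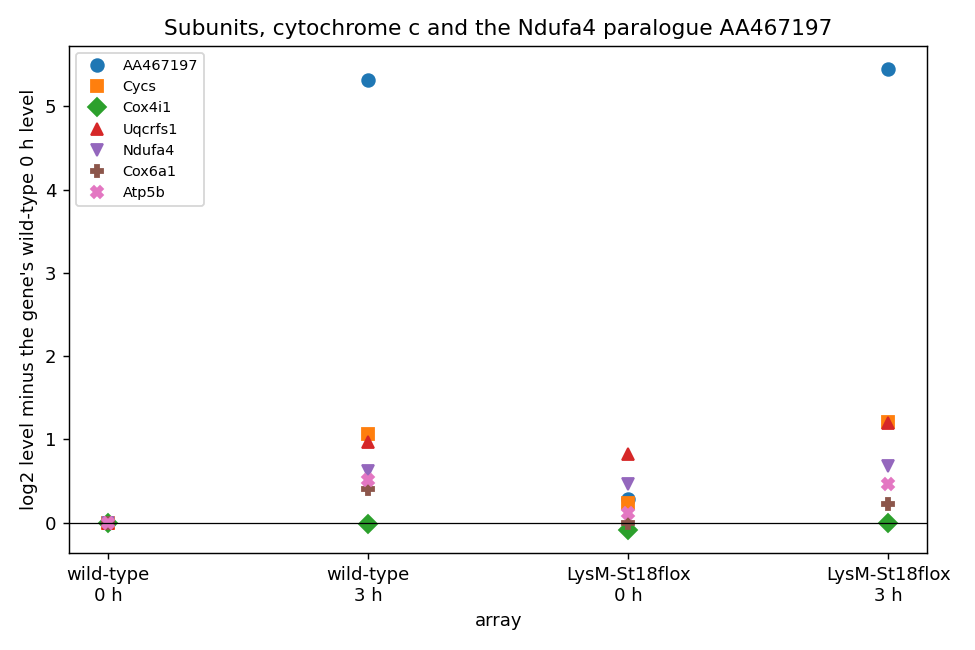
log2 level of AA467197, Cycs, Cox4i1 and 4 members on each array minus the same gene's level on the wild-type 0 h array. AA467197 stands more than 5 log2 units up on both 3 h arrays, Cycs about 1 unit, and Cox4i1 stays near 0.

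Complex V, the ATP synthase, is made of a catalytic F1 head, a membrane ring of c subunits, a peripheral stalk and small membrane subunits. Of the 17 members 12 were above 0 in wild-type cells (median 0.14) and 15 in LysM-St18flox cells (median 0.16). The F1 subunits split. Atp5a1 and Atp5b, which together form the catalytic hexamer, were higher: Atp5a1 went from 5.92 to 6.62 in wild-type and from 6.23 to 6.50 in LysM-St18flox cells (0.70 and 0.28), and Atp5b at 6.10 and 6.61, then 6.21 and 6.56 (0.51 and 0.36). A second, dimmer Atp5a1 probe gave 0.40 in wild-type and 0.12 in LysM-St18flox cells. The other probes of Atp5b had wild-type responses of 0.18 and 1.20 and LysM-St18flox responses of 0.15 and 0.25. The central stalk subunit Atp5d was lower, at 4.43 and 3.92, then 3.70 and 3.49 (-0.51 and -0.21), and its sign held in 5 scalings. Atp5e, another small subunit of the central stalk, gave -0.25 and 0.10, and Atp5c1 gave 0.27 and 0.05.

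The ring subunit is encoded by 3 genes that make the same mature protein, and their transcripts differed. Atp5g3 went from 5.35 to 6.04 in wild-type and from 5.67 to 6.0 in LysM-St18flox cells, higher by 0.69 and 0.32. Atp5g2 was at 6.32 and 5.84, then 5.96 and 5.85, lower by 0.48 and 0.11 (-0.48 and -0.11). Atp5g2 was printed in 10 spots, whose SD on each array was 0.06 to 0.07, and it was lower with LPS in both genotypes in each of 5 scalings. Atp5g1 gave -0.11 and 0.11. The 4 peripheral stalk subunits stayed close together, at 0.01 to 0.19 in wild-type and 0.08 to 0.24 in LysM-St18flox cells. Among the membrane subunits, Atp5mpl gave 0.60 and 0.16 and Atp5md 0.11 and 0.34.

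Set side by side, the responses of the members in the 2 genotypes, which share no array, correlated weakly (Pearson r 0.38, Spearman rho 0.43, 77 genes), while those of all 12344 genes correlated at 0.86 and 0.76. These are correlations across genes, which are not independent replicates. A response of at least 0.2 in the same direction in both genotypes was seen for 12 members upward, 15.6% against 21.3% of all genes, and for 3 downward, 3.9% against 32.2%. The 12 were Uqcrfs1, Uqcrb, Atp5b, Atp5g3, Atp5a1, Cox6c, Cox7a2, Cox6a1, Ndufa4, Cox5a, Ndufs4 and Ndufb3. The 3 were Ndufs7, Ndufs8 and Atp5d. The difference of the responses between the genotypes passed 1.5-fold for 4 members, against 17.5% of genes, and 2-fold for 1, against 5.31%. Among the 4 were Uqcrfs1 (-0.61), Ndufa3 (0.61) and Cox6b2 (0.76). The value of Ndufa3 is that of its brightest probe, and the responses of its second probe lay nearer each other (-0.34 and -0.15).

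**Figure D5:**
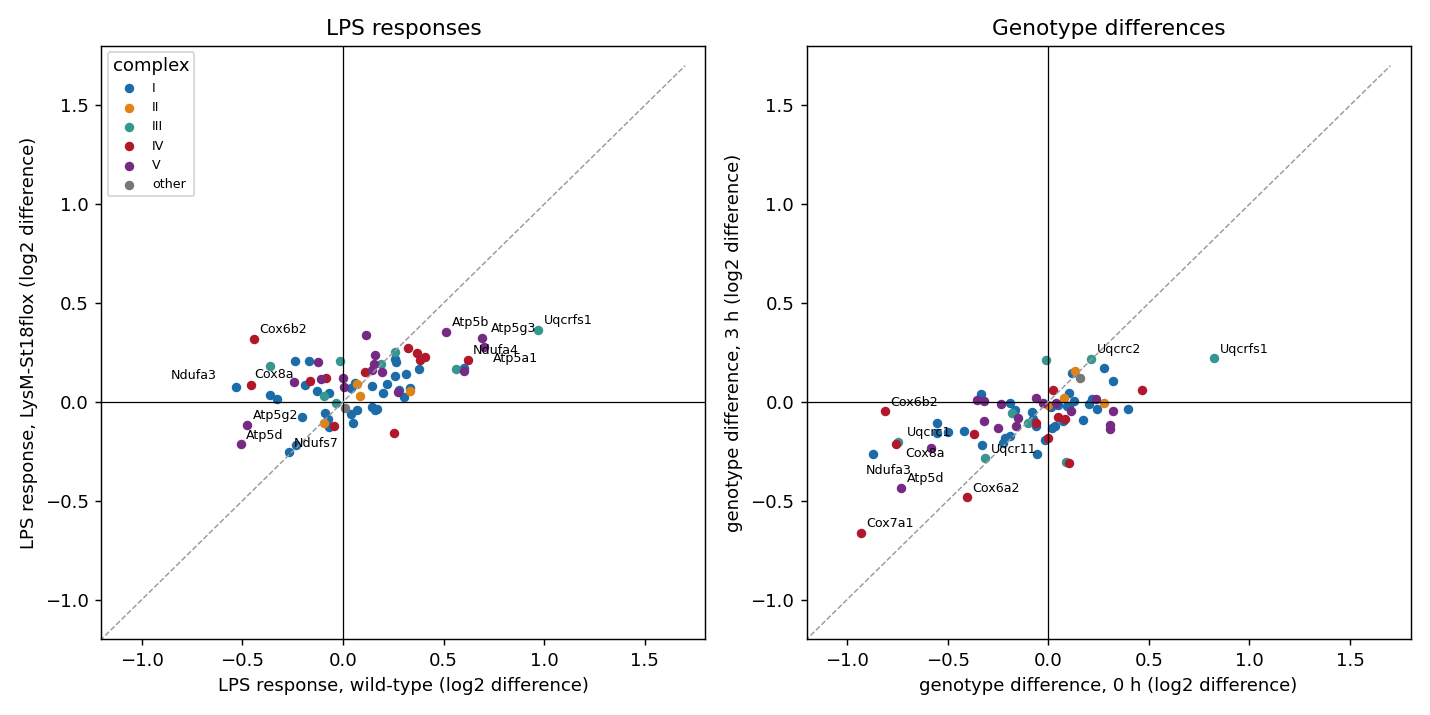
Left, LPS response of measured members in wild-type cells (x) against LysM-St18flox cells (y); right, genotype difference at 0 h (x) against 3 h (y); all in log2, coloured by complex, with the line of equality dashed. Points spread wider along x than along y in both panels, and Cox7a1 and Cox6a2 are low on both axes of the right panel.

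The second comparison asked how the subunits differed between the genotypes before and after LPS. At 0 h, 8 of 77 members differed by at least 1.5-fold, against 20.9% of 12679 genes. Higher in LysM-St18flox cells were 2 (background 8.38%), among them Uqcrfs1, and lower were 6 (background 12.6%), Cox7a1, Ndufa3, Cox6b2, Cox8a, Uqcrc1 and Atp5d. Of these, 1 passed 2-fold, against 6.07% of genes. At 3 h, 1 of 77 members differed by 1.5-fold, Cox7a1, against 8.87% of 13049 genes, and 0 by 2-fold, against 3.22%. The median difference was -0.01 at 0 h, with 36 of 77 above 0 (46.9% of genes), and -0.08 at 3 h, with 19 of 77 above 0 (47.5% of genes). The 3 h median stayed below 0 in 5 scalings (-0.08 to -0.05), while the 0 h median lay between -0.01 and 0.05. Among genes as bright as most members the shares past 1.5-fold were 5 of 72 members against 13.9% of genes at 0 h, and 0 against 2.84% at 3 h.

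The genotype differences at 3 h, which do not use the wild-type 0 h array, were small in every complex. Their medians were -0.08 in complexes I and III, 0.01 in complex II, -0.13 in complex IV and -0.05 in complex V, and the SD over members was 0.15 against 0.41 over all genes. At 0 h the medians were 0.02, -0.05, 0.11, -0.03 and -0.15 for complexes I, III, II, IV and V, with an SD of 0.37 against 0.54. Of the members past 1.5-fold at 0 h, Uqcrfs1 kept 0.22 of 0.83, Ndufa3 -0.26 of -0.87, Cox8a -0.21 of -0.76, Uqcrc1 -0.20 of -0.75 and Cox6b2 -0.05 of -0.81. Cox7a1 and Atp5d kept more, -0.66 of -0.93 and -0.43 of -0.73.

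Of the complex IV isoforms known from other tissues, Cox7a1 and Cox6a2 lay lower in LysM-St18flox cells at both times. Cox7a1, the heart and muscle form of subunit 7a, was at 1.52 (0 h) and 1.36 (3 h) on the wild-type arrays, against 0.59 and 0.70 on the LysM-St18flox arrays, 1.90-fold lower at 0 h and 1.58-fold lower at 3 h (-0.93 and -0.66). Cox6a2, the heart and muscle form of subunit 6a, was at 0.10 and 0.06, then -0.30 and -0.43 (-0.40 and -0.48). Both genes were lower at both times in each of 5 scalings, as were Cox6b2 (-0.05 at 3 h) and general subunits such as Cox8a and Cox7b. Cox6b2, the testis form of subunit 6b, was at -1.71 and -2.15, then -2.52 and -2.20. The general forms Cox7a2 and Cox6a1 gave 0.05 and -0.08, and 0.00 and -0.18. The 7 measured mesothelial and stromal markers were lower in LysM-St18flox cells as well, 7 of 7 at each time, with medians of -1.10 and -1.51, and their part in the isoform differences was not tested.

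Among the remaining members Atp5d was lower at both times, by 0.73 and 0.43 (-0.73 and -0.43), as was Atp5e, another central stalk subunit (-0.58 and -0.23). Uqcr11 gave -0.31 and -0.28 and Ndufs7 -0.22 and -0.21. Uqcrc2 was higher at both times, by 0.21 and 0.22, and Sdha by 0.13 and 0.16 on its brightest probe. For the brightest probes of Uqcr11, Ndufs7, Uqcrc2 and Sdha the 0 h and 3 h values nearly coincide, but a second Sdha probe gave 0.31 and -0.03. The differences of Atp5d and Atp5e were smaller at 3 h than at 0 h. A difference of at least 0.2 the same way at both times was seen for 10 members downward, 13% against 13.2% of all genes, and for 2 upward, 2.6% against 10.1%. The 0 h and 3 h differences, which share no array, correlated over members at r 0.48 and rho 0.51, and over all genes at 0.42 and 0.37.

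Assembly factors, which build the complexes but are not part of them, passed 1.5-fold with LPS about as often as genes in general. Of 45 measured, 5 passed 1.5-fold upward and 12 downward in wild-type cells, while in LysM-St18flox cells 4 and 12 did, against 42.1% and 34.7% of all genes either way and next to 7 and 0, and 0 and 0, of the 77 members. Cox18, an insertase for a mitochondrially encoded subunit of complex IV, was higher in both (1.78 and 1.41). Sco1 and Sco2, related copper chaperones of complex IV, went opposite ways in both genotypes (1.39 and 0.88 for Sco1, -1.29 and -1.10 for Sco2). Sdhaf1, which helps place the iron-sulfur clusters of Sdhb, was lower (-0.90 and -1.29), as was Uqcc3 of complex III (-1.44 and -0.80). Uqcc1, also of complex III, was at 0.69, 0.83 and 0.35 on 3 arrays and at -2.48 on the wild-type 3 h array alone. The values of Sco1 were chosen after they were seen, to set beside Sco2.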

How the data were processed

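RNA was profiled on Agilent 1-colour arrays, 1 per group. Per the file headers, the deposited spot intensity values come from Feature Extraction (Agilent, version 11.0.1.1) by background subtraction and spatial detrending, with no scaling between arrays. The authors' deposited value table holds log2 values of 25482 probes; its filter and centring are not stated in the sources used here, and each column had a median of 9.58 and correlated with its own array at 0.99994 or more. Probes were named through RefSeq accessions (GRCm38.p6), which named 32994 of 56605 probes. Spots of a probe were averaged, log2 intensity was set against the array's 75th percentile, and each gene took its brightest probe. A gene was measured in a comparison if well above background, unsaturated and without outlier flags on both arrays. Differences are log2 ratios of 2 arrays, counted at 1.5-fold and 2-fold, with no test; the counting was tested on simulated data. Precision is limited by the number of arrays. The members and all gene lists were chosen with earlier results of these data known. Of the members, 1 is counted in every count and median but is not reported here by name, value or point in a plot. Genes were named by a rule: members past 1.5-fold, the extremes of each complex, core subunits, tissue isoforms, and up to 3 of each related list per comparison; the other members named were chosen after their values were seen. The alternatives were quantile normalization, median scaling, normexp (offset 50, on median spot signals, since mean signals are not among the columns used here), the mean of a gene's probes, no background filter, a signal of at least 100, a member list without tissue isoforms and non-subunits, and the deposited values. Python 3.11.15, numpy 2.4.6, pandas 2.3.3, R 4.3.3 and limma 3.58.1 were used.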

Additional observations from a re-analysis of the deposited data

Results flagged for a closer look

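For 5 of 77 members the LPS response pointed up in 1 genotype and down in the other, each past 3 times the spot noise, against 7.65% of all 12344 genes measured on all arrays. Cox6b1 was lower with LPS in LysM-St18flox cells (-0.16) and higher in wild-type cells (0.25). The opposite held for Cox6b2 (0.32 against -0.44), Ndufa9 (0.21 against -0.17), Ndufb2 (0.21 against -0.24) and Uqcrc1 (0.18 against -0.36). Cox6b2 was dim (levels -2.52 to -1.71), and the spot noise, taken mostly from bright probes, may not describe it. With quantile normalization and with the authors' deposited values Ndufb2 (-0.05 and -0.05) and Uqcrc1 (-0.10 and -0.09) were lower in LysM-St18flox cells too, so that their directions no longer differed. None of these differences between genotypes was tested, since each value comes from 2 single arrays, and all 5 contrasts include the wild-type 0 h array.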

How the results depend on the processing

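The scaling decided the direction of the LPS response of the members as a set. The median in wild-type cells, 0.08 as reported, was -0.14 with quantile normalization and with the authors' deposited values, with 26 of 77 members above 0 in each, and 0.19 with the median scale. In LysM-St18flox cells it was -0.19 with quantile normalization and with the deposited values, with 6 members above 0 in each, and 0.16 with the median scale. The genotype median at 0 h was 0.053 with quantile normalization and 0.052 with the deposited values. Counts moved where they were small. With the median scale 2 members passed 2-fold in wild-type cells. Without the background filter (81 members), 2 passed 2-fold in wild-type cells, 1 passed 1.5-fold and 1 passed 2-fold in LysM-St18flox cells, 2 passed 2-fold between genotypes at 0 h, and 3 and 1 passed 1.5-fold and 2-fold at 3 h. The 3 h count past 1.5-fold was 0 with normexp and 0 without tissue isoforms and non-subunits, which leaves out Cox7a1. The range over arrays passed 1.5-fold for 1 member without the wild-type 0 h array, a choice made after seeing the data, against 13 with it. Over the 4 comparisons and 8 alternatives no named value of a member past 1.5-fold changed sign. Of values of members past 1.5-fold, 43 of 125 moved by at least the spot SD of a difference (0.047 to 0.054). So did 47 of 160 complex medians. Some alternatives, such as no background filter, reuse the same value of a measured member, as does the mean of probes for members with 1 probe. Such values could not move or change sign, so the remainder do not measure stability. No paired analysis was possible because each group has 1 array. Dim probes limit the isoforms Cox7b2, Cox8b and Cox8c, which have only a bound.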

Other observations

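Regulators and suppliers of the respiratory chain differed in how far they moved with LPS, as values with no explanation. Of 12 measured regulators of mitochondrial biogenesis, 0 passed 1.5-fold upward and 4 downward in wild-type cells, while 1 and 3 did in LysM-St18flox cells. Over all measured genes 42.1% and 34.7% passed it either way, the background for each list here. Gabpb2, a partner of the ETS factor Gabpa, gave -1.02 and -0.83, the mitochondrial RNA polymerase Polrmt -0.91 and -0.93, and the transcription factor Tfb2m -0.87 and -0.64. Gabpb1, another partner of Gabpa, gave 0.23 and 0.67. Nrf1 itself gave -0.40 and 0.31, and Yy1 0.05 and -0.03. Members with and without an NRF1 match in the promoter window had median wild-type responses of 0.08 and 0.01, and LysM-St18flox medians of 0.08 and 0.10. For the ETS letters the wild-type medians lay the other way, at -0.01 with and 0.06 without a match, and the TATA box, on 6 measured members, had the widest gap, at -0.30 and 0.07.

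Among 23 measured genes of the tricarboxylic acid cycle and pyruvate dehydrogenase, the lowest responses were those of regulators of pyruvate dehydrogenase, with the phosphatase Pdp1 at -1.73 and -1.80 and the kinase Pdk2 at -1.42 and -1.05. The phosphatase Pdp2, at 0.52 and 1.40, was highest in LysM-St18flox cells, while citrate synthase (Cs) was highest in wild-type cells at 0.58. In this list 0 passed 1.5-fold upward and 2 downward in wild-type cells, against 2 and 3 for LysM-St18flox. Of the mitochondrial ribosomal proteins, 6 of 77 measured passed upward and 6 downward in wild-type cells, against 2 and 2 of 78 for LysM-St18flox, with Mrpl46 at 1.14 and 0.31. Of 23 measured import genes, 4 were higher and 3 lower, then 1 and 1, with Tomm20 at 0.78 in wild-type cells. The matrix superoxide dismutase Sod2 was higher by 2.97 and 3.02. None of the 26 names of mitochondrially encoded genes matched a probe here.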
